A study of Mus musculus with 4 samples.

Results

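Integrins and the core adaptor proteins of focal adhesions were examined in mouse embryonic stem cells with and without Trim28, a co-repressor also called KAP1. The set was given as a list of 36 gene symbols, made of 17 integrin alpha chains, 8 integrin beta chains and 11 cytoplasmic adaptors. Membership goes by gene name and uses no measured value, but the set was proposed with earlier results of these data known. Counts over it are therefore a description and not independent evidence. Each gene was read from the probe set annotated to that symbol alone. Where a gene had several, the brightest by mean over all arrays, knockout included, was taken. By this rule 34 of the 36 genes were measured, among 18820 genes compared in all. Ptk2, the focal adhesion kinase gene, was not analysed here. Lims2 shares its probe set with Gpr17 and was left out of the counts.

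Total RNA was hybridised to Affymetrix Mouse Gene ST 1.1 arrays, with 2 biological replicates labelled KAP_WT (genotype wild type) and 2 labelled KAP_KO (genotype KAP1 fl/fl, knockout). The characteristics of all 4 samples list 4-OH-tamoxifen, the inducer of the deletion, although the protocol also names a vehicle arm. It gives 24 hours of treatment and then 48 hours without it. The cells grew on irradiated embryonic fibroblasts, and no removal of these feeder cells is described. Which recombinase the inducer acts on, and whether the wild-type cells are the same line, are not given in the sources used here. A difference between lines and the loss of Trim28 therefore cannot be told apart. Nothing states that replicates came from separate cultures, so the p-values measure only the spread between these arrays.

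Integrins are transmembrane receptors made of 1 alpha and 1 beta chain. Together the chains decide which matrix protein or counter-receptor on another cell is bound. Their short cytoplasmic tails carry no enzyme activity. Talins and kindlins bind the beta tail and switch the receptor on. The complex of integrin-linked kinase, PINCH and parvin, with paxillin and focal adhesion kinase, then ties it to actin and to signalling. In embryonic stem cells integrins hold colonies to laminin and fibronectin.

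Trim28 fell from 11.29 and 11.37 in the wild-type samples to 8.97 and 8.92 in the knockout samples (log2 values, limma adjusted p = 3.39e-05). The labels and the targeted gene thus go the same way, although the exons that its probe set reads were not known here. The 12 stem cell markers averaged 10.37 and 10.36 (log2) in the wild type and lower in the knockout, at 9.92 and 9.68. Of these 8 fell and 1 rose, whereas 12.7% of all genes tested were lower and 14.2% higher. Fgf4, Klf4 and Esrrb had the largest falls, at -1.47, -1.34 and -1.11; without wild-type replicate 1 or 2 the adjusted p was 0.1005 and 0.0747 for Klf4 and 0.0581 and 0.0655 for Esrrb. Of 19 fibroblast markers 12 rose and 0 fell, led by Dcn (2.64), Col1a1 (1.78) and Pdgfrb (1.58).

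In the knockout the RNA of 4 alpha chains, 3 beta chains and 5 adaptors was higher, among them Ilk, Lims1 and Parva, and that of 3 alpha chains, 1 beta chain and 1 adaptor was lower. Of the 34 measured genes 12 were higher and 5 lower in the knockout at an adjusted p under 0.05, that is 17 called. Over all genes tested 26.9% were called: 14.2% were higher and 12.7% lower. The share of rises among these genes (35.3%) was above the background, and the share of falls (14.7%) was near it. The largest rises were those of Parva (2.57), Fermt1 (1.97), Itgb8 (1.51), Itga3 (1.38), Itgb1 (1.34), Itgav (1.32), Itga1 (1.12) and Ilk (1.02), all on the log2 scale. The falls were those of Itgb7 (-1.05), Itgal (-0.98), Itga9 (-0.66), Itga10 (-0.47) and Tln2 (-0.42). A change of at least 2-fold was called for 9 of the 34 genes, against 5.89% of all genes. In bulk RNA, fewer cells of a type and less RNA per cell cannot be told apart.

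The median change was 0.05 over the 34 genes and -0.05 over all genes tested. With each array's median over the tested genes subtracted, which moves every change by -0.17, the medians were -0.12 and -0.22. The array medians over the tested genes were 5.46 and 5.48 in the wild type against 5.66 and 5.63 in the knockout. Over all probe sets they were 4.76 and 4.75 against 4.76 and 4.77, and so nearly equal. The subtraction thus moved the median change of all genes tested away from no change, from -0.05 to -0.22. The counts were then 12 higher and 11 lower, and the share of rises among the calls was 52.2%, against 70.6% as deposited. Over all genes the share of rises went from 52.8% to 24.4%, with 2065 of 18820 then higher and 6392 lower. Counts given below for this scaling stand against that background. Each of the 12 genes that rose was also called higher after this subtraction.

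**Figure D1:**
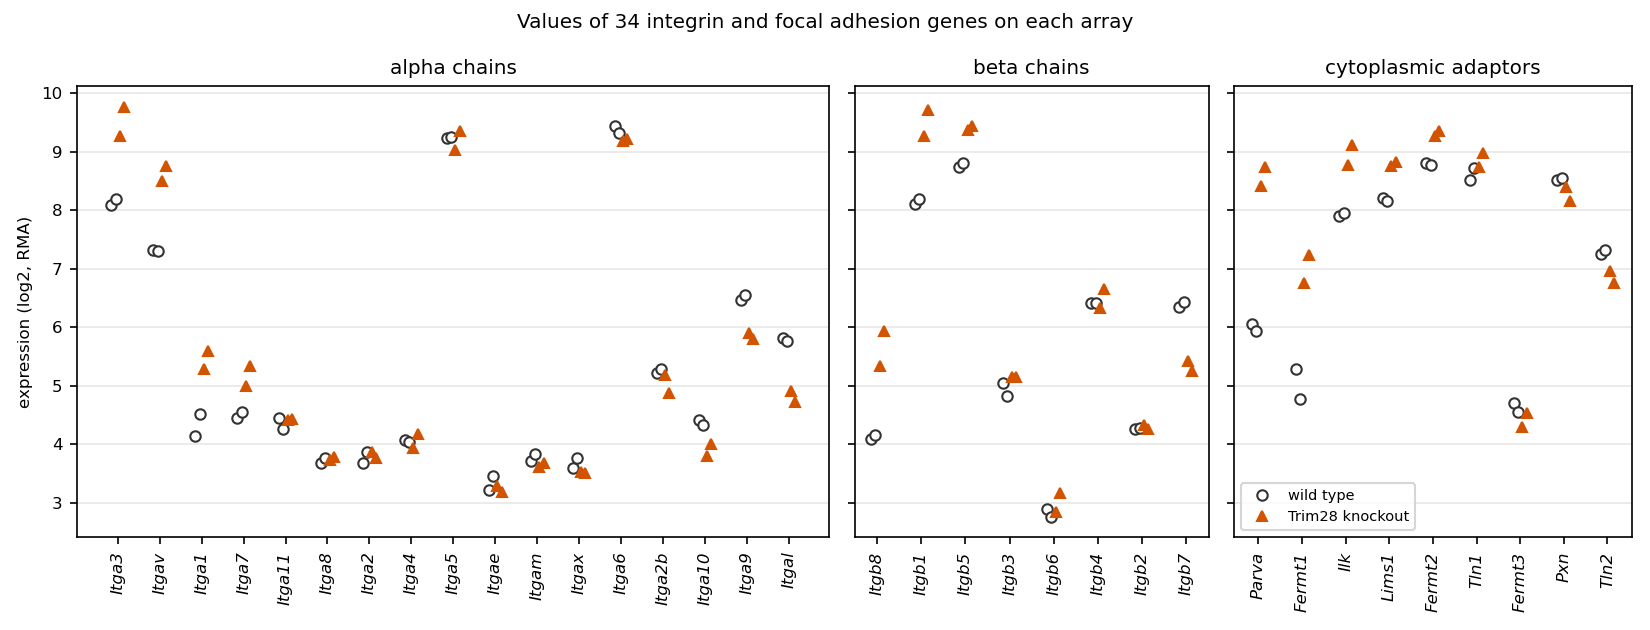
Log2 RMA expression (vertical axis) of the 34 measured genes on each array, by class and ordered by change; circles are the 2 wild-type arrays and triangles the 2 Trim28 knockout arrays. Parva, Fermt1, Itga3, Itgav and Itgb1 show triangles well above circles, while Itgal and Itgb7 show the reverse.

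The alpha chains went both ways. Of 17 measured, 4 rose, 3 fell and 10 missed the threshold, with a median change of -0.05 (with array medians subtracted, 4 rose, 7 fell and the median was -0.22). Rises were 23.5% and falls 17.6% of this class, against 14.2% and 12.7% of all genes tested. Itga3, the alpha chain of a laminin receptor of epithelia, read 8.09 and 8.20 in the wild type against 9.28 and 9.78 in the knockout. Its rise was 1.38 (SE 0.16, adjusted p = 0.00144), a 2.61-fold higher level. Itgav, the alpha chain shared by receptors for vitronectin, fibronectin and latent TGF-beta, read 7.32 and 7.31 in the wild type against 8.50 and 8.76 in the knockout. This was a rise of 1.32 (SE 0.11, adjusted p = 4.28e-04), or 2.50-fold. For both genes the knockout values lay more than 1 log2 unit above the wild-type values, and the groups did not overlap.

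Itga1, a collagen receptor chain of mesenchymal cells, read 4.14 and 4.51 in the wild type against 5.29 and 5.60 in the knockout, a rise of 1.12 (adjusted p = 0.00297). Itga7, a laminin receptor chain best known in muscle, read 4.45 and 4.56 against 4.99 and 5.35, a rise of 0.67 (adjusted p = 0.0118). The gap between the groups was smaller for Itga7, and its call was lost without wild-type replicate 1 (0.61, adjusted p = 0.102) or 2 (0.72, adjusted p = 0.0747). Both genes were among the 11 of the set whose mean level lay between the lower quartile (3.80) and the median (5.57) of all genes tested. The called genes Itgal, Itga10 and Itgb8, described below, lay in the same range. Signal over background is unknown here, and RMA compresses differences among dim probe sets.

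The alpha chains that fell were Itgal, Itga9 and Itga10. Itgal, the alpha chain of the leukocyte integrin LFA-1, read 5.82 and 5.77 in the wild type against 4.90 and 4.73 in the knockout (-0.98, SE 0.10, adjusted p = 8.42e-04). Itga9, which binds tenascin and other ligands, went from 6.47 and 6.55 to 5.90 and 5.80 (-0.66, adjusted p = 0.00318). The groups were clearly apart in both. Itga10, a collagen receptor chain of cartilage, read 4.41 and 4.33 against 3.80 and 4.00, a fall of 0.47 (adjusted p = 0.0182). Its call was lost without wild-type replicate 1 or 2 or knockout replicate 1, with adjusted p between 0.0765 and 0.114.

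The other major alpha chains of stem cells were not among the calls. Itga6, a laminin receptor chain used as a stem cell surface marker, read 9.44 and 9.33 in the wild type against 9.18 and 9.23 in the knockout. Its change of -0.18 had a 95% confidence interval of -0.40 to 0.04 (adjusted p = 0.207), and with array medians subtracted it was called lower (-0.35, adjusted p = 0.0274). Itga5, the chain of the classical fibronectin receptor, read 9.24 and 9.25 against 9.03 and 9.36, and the groups overlapped. Its 95% confidence interval of -0.36 to 0.25 ended below that of Itgav, which was 1.05 to 1.59.

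The remaining 8 uncalled alpha chains were Itga2, Itga2b, Itga4, Itga8, Itga11, Itgae, Itgam and Itgax. Their changes lay between -0.22 (Itga2b, the platelet chain) and 0.07 (Itga11, a collagen receptor chain of fibroblasts). Of them Itga2, Itga8, Itgae, Itgam and Itgax lay below the lower quartile of mean level, where an uncalled change says little. Within the 4 collagen-binding chains of the set, Itga1 was higher and Itga10 lower, while Itga2 and Itga11 changed by 0.03 and 0.07. Within the 3 laminin-binding chains Itga3 and Itga7 were higher, and Itga6 missed the threshold. A second Itga4 probe set, listed with Cerkl as well, read 4.05 and 4.23 in the wild type against 3.68 and 3.51 in the knockout, whereas the single-gene probe set read 4.06 and 4.03 against 3.93 and 4.18.

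Of the 8 beta chains 3 rose (37.5%, against 14.2% of all genes tested) and 1 fell (12.5%, against 12.7%). Their median change was 0.19 (0.02 with array medians subtracted). The 250 bases before the annotated start of these 4 genes are shown, from RefSeq's GRCm38.p6 tables, because they are the beta chains that changed and differ in base composition and in motif matches. Capitals mark matches to the Sp1 motif GGGCGG, the NF-Y motif CCAAT, the AP-1 motif TGANTCA, the TEAD motif CATTCC or TATAAA on either strand, and no matches of different motifs overlapped.
Itgb1, chr8:128685404-128685653, plus strand: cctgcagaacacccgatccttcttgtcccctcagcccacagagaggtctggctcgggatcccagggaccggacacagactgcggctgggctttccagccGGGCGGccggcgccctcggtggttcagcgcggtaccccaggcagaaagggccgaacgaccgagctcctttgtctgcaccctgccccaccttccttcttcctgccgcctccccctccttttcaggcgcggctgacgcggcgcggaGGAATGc
Itgb5, chr16:33829415-33829664, plus strand: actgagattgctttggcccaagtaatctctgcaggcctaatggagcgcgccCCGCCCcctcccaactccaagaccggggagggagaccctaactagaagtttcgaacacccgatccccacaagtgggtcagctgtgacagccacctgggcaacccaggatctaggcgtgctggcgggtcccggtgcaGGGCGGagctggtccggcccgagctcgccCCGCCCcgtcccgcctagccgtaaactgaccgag
Itgb8, chr12:119238277-119238526, minus strand: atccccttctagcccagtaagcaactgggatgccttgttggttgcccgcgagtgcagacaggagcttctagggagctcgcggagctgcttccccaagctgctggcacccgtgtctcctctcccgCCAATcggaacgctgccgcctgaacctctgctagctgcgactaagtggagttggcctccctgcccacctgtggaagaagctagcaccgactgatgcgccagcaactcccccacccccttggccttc
Itgb7, chr15:102231936-102232185, minus strand: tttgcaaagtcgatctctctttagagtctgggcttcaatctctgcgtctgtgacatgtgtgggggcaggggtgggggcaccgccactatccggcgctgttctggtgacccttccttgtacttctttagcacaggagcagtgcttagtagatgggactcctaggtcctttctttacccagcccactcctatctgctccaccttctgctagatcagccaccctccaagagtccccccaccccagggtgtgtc
The Itgb1 window holds 1 GGGCGG match and 1 CATTCC match, and the Itgb5 window 3 GGGCGG matches. Itgb8 has 1 CCAAT match, and the Itgb7 window holds none of the 5 motifs. The G and C share was 68.0%, 65.2%, 62.4% and 56.0% in the order printed.

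RefSeq promoter windows were used for 24 of the 36 genes, with 29 start sites. For the set, windows on an excluded chromosome were not used, while all promoter windows kept that chromosome. GGGCGG stood in 8 of 14 windows of genes that rose, 0 of 3 of genes that fell and 3 of 12 of uncalled genes, against 32.7% of all 32851 promoter windows of this length. Some genes have several windows, and the 2 of Ilk overlap. Counted by gene, the motif stood in 7 of 10, 0 of 3 and 3 of 11. The called genes Parva, Itga7, Itgal and Tln2 had no window. The median G and C share of these 3 groups was 64.8%, 56.0% and 54.8%, against 52.4% over all windows. CCAAT stood in 4 of 14, 0 of 3 and 1 of 12 windows, against 33.8% of all. The AP-1, TEAD and TATA motifs stood in 1, 2 and 1 of the 29 windows, against 6.75%, 12.6% and 12.4% of all. A match here is only a match of letters, and whether a factor binds was not measured.

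Itgb1, the beta chain of the most numerous integrin receptors, read 8.12 and 8.19 in the wild type against 9.27 and 9.72 in the knockout. Its rise of 1.34 (SE 0.15, adjusted p = 0.00119) was a 2.53-fold higher level. A second probe set listed for Itgb1 alone disagreed, with 5.17 and 5.31 in the wild type against 5.23 and 5.12 in the knockout (change -0.06, adjusted p = 0.699 with every probe set tested). The mean of both probe sets rose by 0.64 (adjusted p = 0.00506). Which exons either probe set reads was not known here.

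Itgb8, which pairs with Itgav and releases active TGF-beta from its latent complex, had the largest change of the beta chains. It read 4.09 and 4.15 in the wild type against 5.33 and 5.93 in the knockout (1.51, SE 0.19, adjusted p = 0.00166). Itgb5, the beta chain of a vitronectin receptor, rose from 8.74 and 8.82 to 9.38 and 9.44 (0.63, adjusted p = 0.00326). The rise of Itgb5 was smaller, though its replicates lay within 0.08 of each other in both groups.

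Itgb7, a lymphocyte beta chain that pairs with Itga4 and Itgae, fell from 6.34 and 6.44 to 5.42 and 5.26 (-1.05, SE 0.10, adjusted p = 6.53e-04). It was the only beta chain called lower. Itgb3, the other widely studied partner of Itgav, read 5.05 and 4.82 in the wild type against 5.15 and 5.15 in the knockout, a change of 0.21 (adjusted p = 0.204). Itgb2 (0.03), Itgb4 (0.08) and Itgb6 (0.17) also missed the threshold, and Itgb6 lay below the lower quartile of mean level. The changes of all members and their intervals are set out in the plot of changes with confidence intervals.

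**Figure D2:**
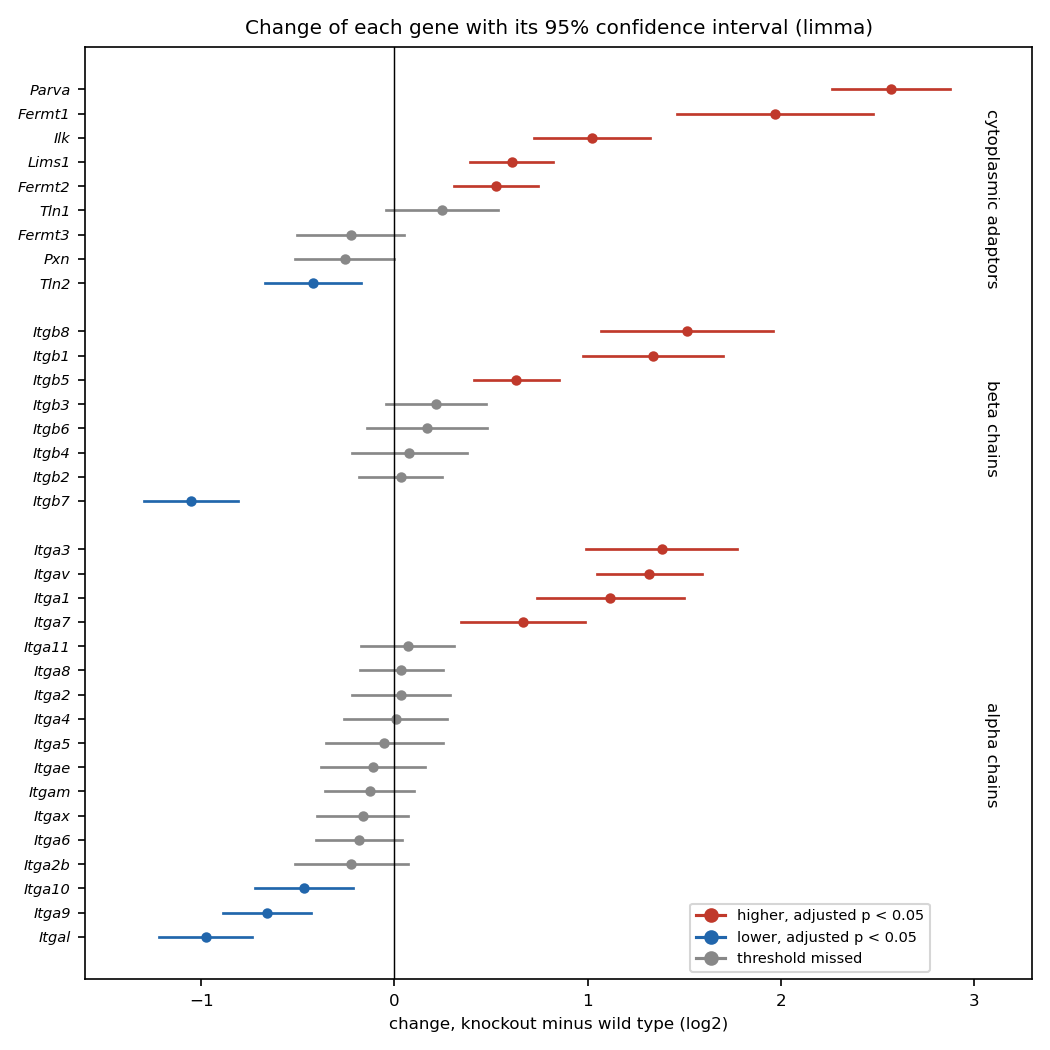
Change between knockout and wild type (horizontal axis, log2) of each gene with its 95% confidence interval from limma, by class. Red marks genes higher and blue genes lower at an adjusted p under 0.05, and grey those that missed it; the 17 grey genes lie between -0.26 and 0.25.

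Since receptors need both chains, the changes were set side by side for 23 textbook pairs among the members, a grouping made after the values were known. Both chains were higher in 6 pairs, namely Itgb1 with Itga1, Itga3, Itga7 or Itgav, and Itgav with Itgb5 or Itgb8. The 4 pairs with Itgb1 rest on its brighter probe set, while its other probe set changed by -0.06. The call of Itga7 was lost without either wild-type replicate. Of the 12 pairs that use Itgb1, the alpha chain missed the threshold in 6 and was lower in 2, Itga9 and Itga10. Neither chain was called in 4 pairs, which were Itga2b with Itgb3, Itga6 with Itgb4, and Itgb2 with Itgam or Itgax. In no pair were both chains called lower. Itgal fell while its partner Itgb2 did not pass, and Itgb7 fell while Itga4 and Itgae did not pass. For Itga4 this rests on its single-gene probe set, while the probe set listed with Cerkl as well changed by -0.55. Itgae lay below the lower quartile of mean level, where an uncalled change says little. Pairs that share a chain repeat its value, so they are not separate observations, and RNA gives no measure of assembled receptor.

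**Figure D3:**
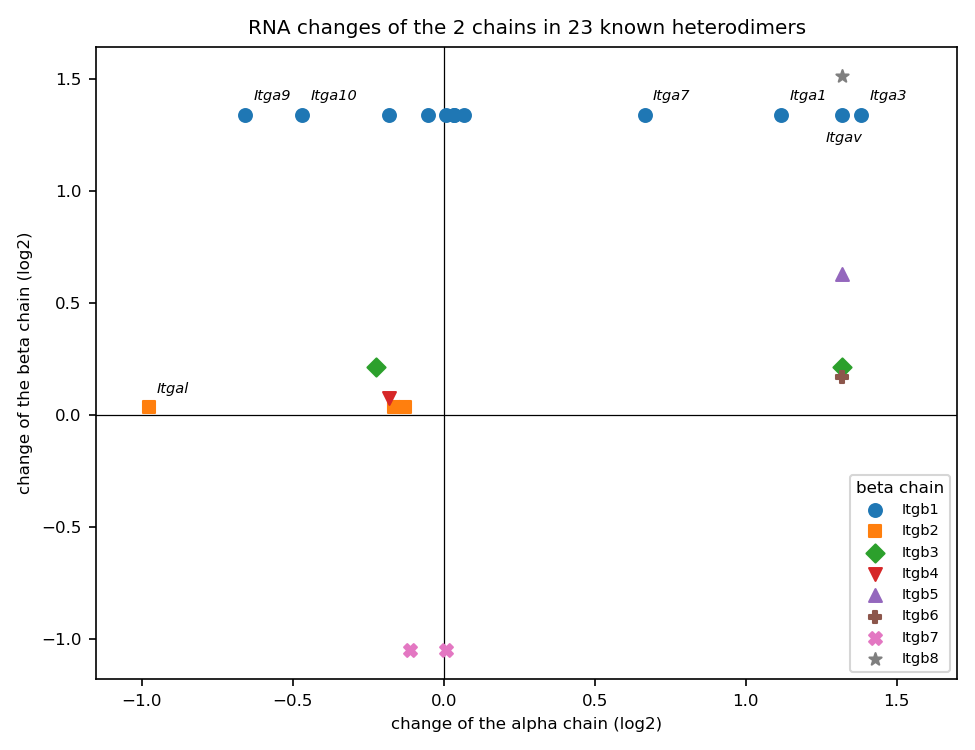
Change of the alpha chain (horizontal axis, log2) against that of the beta chain (vertical axis, log2) in 23 known heterodimers, with the symbol giving the beta chain. The 6 pairs with both chains called higher lie at the upper right; the pairs of Itgal and of Itgb7 lie at the left and at the bottom.

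The cytoplasmic adaptors held the largest single change. Of 9 measured, 5 rose and 1 fell, with a median of 0.53 (5, 3 and 0.36 with array medians subtracted). Rises made up 55.6% of this class and falls 11.1%, against 14.2% and 12.7% of all genes tested. All 9 had groups that did not overlap, against 65.2% of all genes. Parva, or alpha-parvin, which joins integrin-linked kinase to actin, read 6.06 and 5.94 in the wild type against 8.41 and 8.73 in the knockout. The rise was 2.57 (SE 0.13, adjusted p = 7.03e-05), a 5.94-fold higher level with a 95% confidence interval of 2.26 to 2.88 on the log2 scale. Ilk, the scaffold at the centre of the complex, read 7.90 and 7.95 against 8.78 and 9.11, a rise of 1.02 (SE 0.13, adjusted p = 0.00169). Lims1, which encodes PINCH1, the third partner, rose from 8.21 and 8.16 to 8.77 and 8.82 (0.61, adjusted p = 0.00341). Single-gene probe sets of all 3 partners were therefore higher in the knockout. A probe set shared by Ilk and its neighbour Taf10 read 6.01 and 6.30 against 5.90 and 6.10.

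The other parvins moved the opposite way. Parvb, or beta-parvin, which takes the same place on Ilk, read 9.70 and 9.62 in the wild type against 8.12 and 8.08 in the knockout (-1.56, SE 0.09, adjusted p = 1.07e-04). It was 2.95-fold lower. Parvg, the parvin of blood cells, read 4.25 and 4.45 against 3.92 and 3.88 (-0.45, adjusted p = 0.0190; 0.108 without wild-type replicate 2 and 0.0677 without knockout replicate 2). Parvb was named by its fall in the wider list of adhesion-site genes, and Parvg because it was the remaining parvin. Parvb and Parvg are adjacent among the genes tested on chromosome 15.

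The kindlins, which bind the beta tail beside talin, differed by paralog. Fermt1 (kindlin-1, of epithelia) read 5.29 and 4.77 in the wild type against 6.76 and 7.24 in the knockout, a rise of 1.97 (SE 0.21, adjusted p = 9.78e-04). Fermt2 (kindlin-2, of most adherent cells) rose from 8.80 and 8.77 to 9.27 and 9.36 (0.53, adjusted p = 0.00670; 0.0572 without wild-type replicate 2). Fermt3 (kindlin-3, of blood cells) read 4.71 and 4.56 against 4.29 and 4.52, a change of -0.23 (adjusted p = 0.210). The wild-type values of Fermt1 differed by 0.53 between replicates, and the rise was 2.23 without the first and 1.71 without the second.

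The talins and paxillin moved less. Tln1, the ubiquitous talin, read 8.52 and 8.72 in the wild type against 8.75 and 8.98 in the knockout (0.25, 95% confidence interval -0.04 to 0.53, adjusted p = 0.191). Tln2 fell from 7.25 and 7.32 to 6.96 and 6.76 (-0.42, SE 0.10, adjusted p = 0.0261). That call was lost without wild-type replicate 1 or 2 or knockout replicate 2, with adjusted p between 0.0988 and 0.141. Pxn, the paxillin gene, read 8.52 and 8.55 against 8.40 and 8.17 (-0.26, adjusted p = 0.130), and was called lower with array medians subtracted (-0.43, adjusted p = 0.0164).

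Knockout replicate 2 stood farther from the wild type than replicate 1 in most of the called genes. Its value was the higher of both knockout samples in 12 of the 12 genes that rose and the lower in 4 of the 5 that fell. Over all genes called, the counts were 1684 of 2676 and 1559 of 2395. Leaving out wild-type replicate 1 left 11 higher and 3 lower calls among the 34 genes, and leaving out wild-type replicate 2 left 10 and 3, while 14.1% and 12.9% of all genes were called. With either knockout replicate left out, no called gene changed direction, though the calls of Itga10 and Tln2 were not kept in both cases.

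Other genes of adhesion sites and integrin ligands were counted from lists made by function, also with earlier results known. Of 52 measured adhesion-site genes 22 rose and 7 fell, with a median of 0.22 (21, 12 and 0.05 with array medians subtracted). The rises were 42.3% and the falls 13.5% of the list, against 14.2% and 12.7% of all genes tested. The share of falls was thus near the background. Cav1 (2.72), the caveola scaffold, rose most, followed by the zyxin gene Zyx (1.95), the LIM-domain genes Fhl2 (1.92) and Tgfb1i1 (1.90), and Lpp (1.84). Zyx read 6.56 and 6.30 in the wild type against 8.26 and 8.51 in the knockout. Parvb, Fblim1 (-1.12, migfilin, a filamin-binding adaptor) and the actin regulator Enah (-0.94) fell most. Ptk2b, the paralog of the focal adhesion kinase gene and chosen for that after its value was seen, rose from 6.06 and 6.06 to 7.49 and 7.62 (1.497, adjusted p = 1.38e-04).

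Among 37 measured ligand genes 17 rose and 5 fell, with a median of 0.30 (0.13 with array medians subtracted, when 14 rose and 9 fell). Rises made up 45.9% of this list and falls 13.5%, against 14.2% and 12.7% of all genes tested. Here too the share of falls was near the background. The largest rises were those of Thbs1 (4.22), Tnc (2.77), Col4a2 (1.91), Col4a1 (1.85) and Ccn1 (1.78), which encode matrix and matricellular proteins bound by several integrins. The wild-type replicates differed widely in Thbs1, at 7.50 and 5.17, and in Ccn1, at 9.01 and 7.83. Falls were led by Lama3 (-1.51), a laminin chain of the epidermal type, Icam1 (-0.93), the ligand of the LFA-1 integrin, and Nid1 (-0.55; adjusted p = 0.0607 without wild-type replicate 1). Icam1 read 8.26 and 8.28 in the wild type against 7.29 and 7.38 in the knockout. The RNA of this ligand and of the receptor chain Itgal were both lower, while Itgb2, the partner of Itgal, changed by 0.03. Itga9, which binds tenascin, went the other way from the tenascin gene Tnc (-0.66 against 2.77). These pairings were picked after the values were seen. Fn1, a main ligand of Itga5 and Itgav and named after its value was seen, read 10.97 and 10.79 against 10.97 and 10.86.

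**Figure D4:**
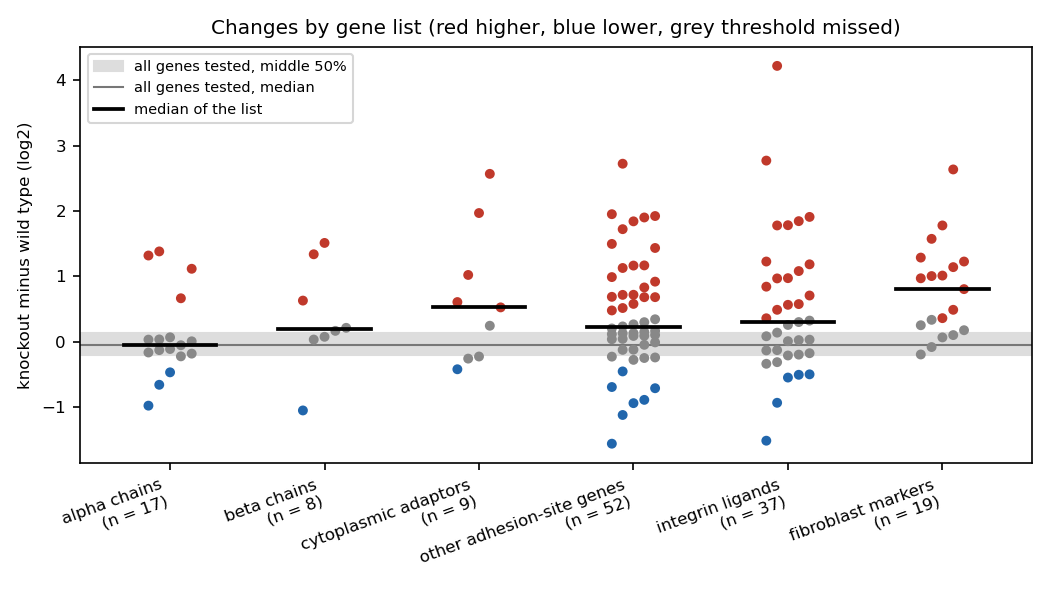
Change between knockout and wild type (vertical axis, log2) of each gene by list, with red higher, blue lower and grey threshold missed; black bars are list medians, and the grey band runs from the lower to the upper quartile of all genes tested. The adaptor median is 0.53, and the alpha chain median is -0.05; subtracting array medians would move every point by -0.17.

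Markers of other cell types moved in the same samples, where 14.2% of all genes tested were higher and 12.7% lower. The summed linear values of the 19 fibroblast markers were 1155 and 1098 in the wild type against 1545 and 1589 in the knockout, and 3 of those markers are also on the ligand list. Fstl1, the brightest of them, missed the threshold; without it the sums were 531 and 490 against 1019 and 1039. Thy1 (0.25), Lum (0.18) and Fap (-0.08), picked after their values were seen, were among the 7 that missed the threshold. The 11 leukocyte markers summed to 1482 and 1327 against 475 and 476; 0 rose and 5 fell, led by Laptm5 (-2.22), Cd3e (-1.12) and Cd68 (-0.56; adjusted p = 0.0565 without wild-type replicate 2). Laptm5 alone accounted for 1141 and 963 of the wild-type sums and 224 and 227 of the knockout sums, and the other 10 markers summed to 341 and 364 against 251 and 249. The pan-leukocyte gene Ptprc, named after its value was seen, read 3.78 and 3.61 in the wild type against 3.57 and 3.67 in the knockout, below the lower quartile of mean level, where an uncalled change says little. The 8 endothelial markers gave 4 rises and 2 falls, with Tie1 at 1.67, Tek at -1.07 and Pecam1 at -0.96. Pecam1 was the brightest of them, at 8.32 and 8.41 in the wild type against 7.53 and 7.28 in the knockout. The linear values of the other 7 summed to 254 and 218 in the wild type against 265 and 242 in the knockout. None of 3 measured megakaryocyte markers passed in limma, and 1 had an unadjusted p under 0.05 (Gp9, -0.27). Array values have no true zero, and the part of these markers in the integrin and adaptor changes was not tested.

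The 17 called genes lie on 12 chromosomes. Each was set beside the tested genes next to it, up to 10 on either side, in the gene order of GRCm38.p6. The medians of the neighbours lay between -0.32 and 0.46. Since the 17 genes were picked for their calls and the neighbours were not, a larger change in the called gene is no finding. Fermt2 came closest to its neighbours, with 0.53 against a neighbour median of 0.46, and 12 of its 20 neighbours on chromosome 14 were called higher. Itga10 followed, with -0.47 against -0.32 and 8 of 20 neighbours lower. Over all genes tested 14.2% were called higher and 12.7% lower. These neighbourhoods were named because they came closest to their genes among the 17. Parva changed by 2.57 against a neighbour median of 0.06, Itgav by 1.32 against 0.16 and Itgb1 by 1.34 against 0.00. Fermt1 had large changes on both sides, in Lrrn4 (1.78) and Bmp2 (2.08), although its neighbour median was -0.05. Itga1 (1.12) and Itga2 (0.03) are adjacent on chromosome 13, and only the first passed the threshold.

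**Figure D5:**
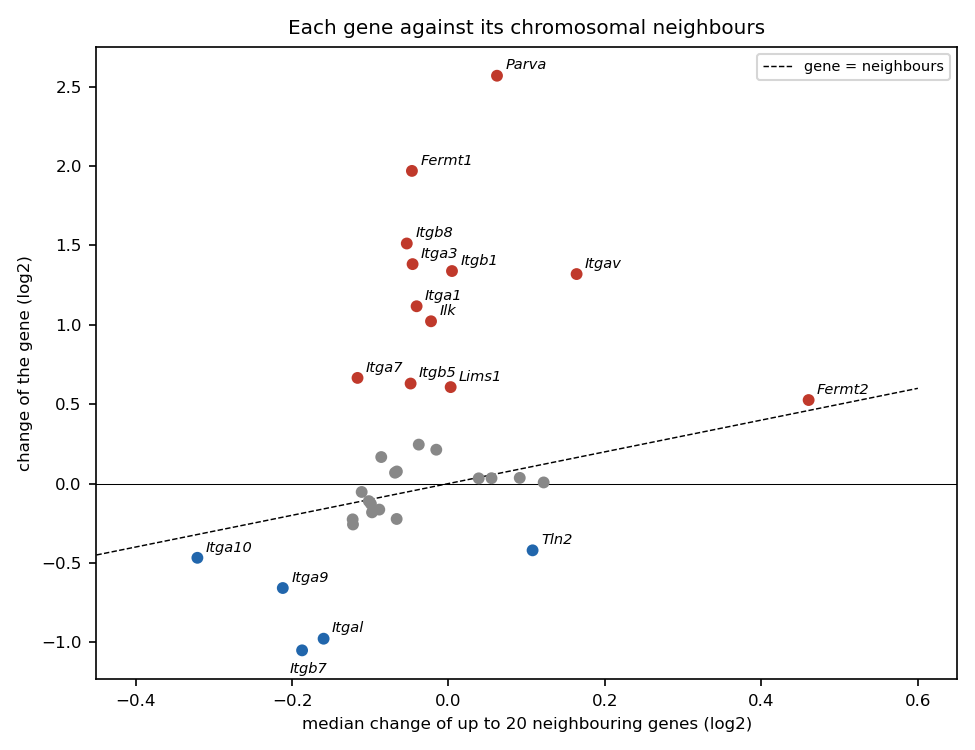
Change of each of the 34 genes (vertical axis, log2) against the median change of up to 20 neighbouring genes (horizontal axis, log2), coloured red for higher, blue for lower and grey for threshold missed; the dashed line marks equality. Fermt2 and Itga10 lie nearest to the line among the called genes.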

How the data were processed

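Total RNA (250 ng per sample) of 2 wild-type and 2 Trim28 knockout samples was hybridised to 1 array each. The deposited values are log2 expression that the authors made with RMA in affy (per the submitters' processing notes); versions and settings are not given in the sources used here. They were used as deposited (1.45 to 12.9) for 35556 probe sets, of which 21218 are annotated to 1 symbol. The brightest probe set stood for a gene, which left 18820 genes with no filter. The knockout and wild-type arrays were compared with limma 3.58.1 under R 4.3.3 (lmFit, eBayes; 2 residual and 4.70 prior degrees of freedom), two-sided, with Benjamini-Hochberg adjustment over all genes and a threshold of 0.05. The fit was tested on simulated data.

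The members, lists, threshold and naming rule were chosen with earlier results of these data known. The rule names Trim28, every called member, Itgb1, Itga5, Itga6, Itgav, Ilk, Pxn and Tln1 whatever their values, up to 5 rises and 3 falls of each adhesion list, and the 3 largest called changes of each marker list. Parvg, Ptk2b, Fn1, Thy1, Lum, Fap, Fstl1, Ptprc, Gp9, Lrrn4 and Bmp2 fall outside it and were named after their values were seen. Replicate number was not used as a block. Alternatives changed the block, prior, filter, scaling, probe set rule, threshold or samples. Precision is limited by the number of arrays.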

Additional observations from a re-analysis of the deposited data

How the results depend on the processing

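Under 15 alternatives the 12 rises and 5 falls among the 34 genes were recounted, and no called gene changed direction. Of the 17 called genes 13 stayed past the threshold in each alternative that tested them; Itga7, Itga10, Tln2 and Fermt2 did not. Of the 17 uncalled genes 11 stayed so, and the other 6, which include Itga2b, Itgam, Itgax and Fermt3, were called lower with array medians subtracted. That scaling gave 8457 genes called in place of 5071, and 6392 of the 8457 were lower. Among the members it gave 11 lower, and 11 alpha chains called in place of 7. Without genes below the median level, 3 members were lower and 3 alpha chains were called, since fewer genes were tested. With at least 1.5-fold asked for, 2712 genes were called and 3 members were lower. Leaving out 1 array at a time gave 2430 to 4350 genes called, 3 to 4 members lower, 10 to 12 higher, 5 to 7 alpha chains, 4 beta chains and 4 to 6 adaptors. With the replicate block, 12 members were higher and 5 lower; the within-group differences of same-numbered samples correlated at 0.15 over genes, which with 2 pairs does not show pairing. Depth has no counterpart here, and signal over background is unknown. Other background corrections need scanner files and were not used here.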
